A study of Mus musculus with 3 samples.

Results

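The 9 genes described here encode components of cytokine signalling: the transcription factors Stat5a, Stat5b, Stat3, Stat2 and Stat6, the kinases Jak1 and Jak2, and the inhibitors Socs2 and Socs3. A TR binding site (TRBS) was counted for one of them when its summit lay in the gene body or within 30 kb of the 5-prime end of the gene, on either side. This rule found 15 distinct TRBS of the 23988 in the list, with 17 assignments to genes, because 2 sites counted for both Stat5a and Stat5b. The list came from ChIP-seq of the thyroid hormone receptor TRα1, tagged with the GS epitope (genotype TRa1 GS-tagged), in the striatum of adult male C57BL/6J mice aged 8 weeks. All animals were untreated and euthyroid, and, per the labels, the tagged receptor was expressed in the GABAergic neurons of the tissue, so the occupancy is that of a tagged receptor. There were 2 ChIP libraries and 1 input library, all of this same genotype, and they yielded 1 peak list without values for single libraries. No spread between replicates was therefore available, no test was made, and every comparison is a description of this list. A site shows occupancy of chromatin and says nothing about the expression of a gene. Fewer cells with an occupied site and less occupancy per cell cannot be told apart in chromatin from whole tissue.

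TRα1 is a nuclear receptor that binds DNA, often as a heterodimer with RXR, and regulates transcription in response to the thyroid hormone T3. The preferred element, called DR4, joins 2 copies of the half-site AGGTCA in the same orientation, 4 bases apart. In the JAK-STAT pathway a cytokine or hormone receptor activates the Janus kinases bound to its cytoplasmic part, the kinases phosphorylate STAT proteins, and STAT dimers enter the nucleus and bind elements of the type TTCNNNGAA. SOCS proteins are induced by STATs and inhibit the receptors and kinases in a negative feedback. In the brain the pathway carries signals of growth hormone, prolactin, leptin and the cytokines of the IL-6 and CNTF family. The comparison asks where TRα1 occupied chromatin at these genes, and with which sequences, in view of a possible cross-talk between T3 and cytokine signalling.

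The label of the cells was compared with defining markers. Of 10 markers of GABAergic and striatal projection neurons, 9 had at least 1 TRBS, with a median of 3.5 sites per gene, and Adora2a had none. Over all protein-coding genes 57.7% had at least 1, with a median of 1 site. The 3 astrocyte markers had none, whereas 2 of 3 oligodendrocyte markers, 2 of 3 microglial markers and 1 of 3 endothelial markers had at least 1, numbers too small to set apart from the share of all genes. The 11 sites of the myelin gene Mbp reached a fold enrichment of 32.7. Whether chromatin of other cells took part in any site was not tested.

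The sequences of the 4 sites with a DR4 are shown first, since this is the element the receptor is known to prefer. DR4 was searched on both strands as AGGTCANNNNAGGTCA, allowing 2 mismatches among the 12 bases of both half-sites, up to 100 bp away from the summit. The capitals mark the half-site bases that match, positions are counted from 1 at the 5-prime end of the 16-base match, and all coordinates are GRCm38, read on the strand of the match.
Stat6 intron 1, chr10:127643752-127643872, minus strand: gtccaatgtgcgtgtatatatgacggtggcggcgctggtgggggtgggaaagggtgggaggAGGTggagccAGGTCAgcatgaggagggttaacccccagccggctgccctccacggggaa
Socs3 upstream, in intron 1 of Pgs1, chr11:117989038-117989158, plus strand: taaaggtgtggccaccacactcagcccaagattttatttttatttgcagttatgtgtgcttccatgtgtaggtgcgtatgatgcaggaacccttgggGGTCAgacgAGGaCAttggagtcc
Jak1 intron 1, distal, chr4:101208975-101209095, minus strand: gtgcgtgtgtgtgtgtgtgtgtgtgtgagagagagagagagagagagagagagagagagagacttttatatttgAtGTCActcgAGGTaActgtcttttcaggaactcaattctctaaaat
Jak1 intron 1, proximal, chr4:101234919-101235039, minus strand: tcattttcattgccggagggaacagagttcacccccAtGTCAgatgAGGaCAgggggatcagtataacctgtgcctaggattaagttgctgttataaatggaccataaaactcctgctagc
Each of these 4 matches departs from the consensus at 2 positions. In the Stat6 match the second half-site is complete and the first carries C5G and A6G. Over its whole length this Stat6 site held 2 matches, and only the 1 shown lay within 100 bp of the summit. The Socs3 match carries A1G and T14A. Both Jak1 matches carry G2T, together with C15A at the distal site and T14A at the proximal one. The distal Jak1 match stands beside a stretch of GT and GA simple repeats, where short reads can be hard to place.

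Sequences of 5 sites without a DR4 are shown for contrast. The capitals mark an E-box (CACGTG) in the Stat3 intron, SP/KLF boxes (GGGCGG or its complement CCGCCC) in the 3 promoter windows, and CCAAT boxes in the Stat2 window. In the Socs2 site they mark the outer bases of 2 STAT elements. The Stat5b window leaves out the summit, and the box marked in it stands more than 100 bp from that summit. It is therefore not one of the boxes counted below for this site.
Stat3 intron 11, chr11:100899494-100899614, minus strand: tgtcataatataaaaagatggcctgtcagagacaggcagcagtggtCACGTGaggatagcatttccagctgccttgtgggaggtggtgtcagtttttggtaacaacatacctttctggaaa
Stat5b site, part before the 5-prime end, chr11:100850725-100850876, minus strand: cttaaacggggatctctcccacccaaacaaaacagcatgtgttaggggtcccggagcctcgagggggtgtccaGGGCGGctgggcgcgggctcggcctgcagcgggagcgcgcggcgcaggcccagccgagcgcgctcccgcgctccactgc
Stat2 promoter, chr10:128270346-128270486, plus strand: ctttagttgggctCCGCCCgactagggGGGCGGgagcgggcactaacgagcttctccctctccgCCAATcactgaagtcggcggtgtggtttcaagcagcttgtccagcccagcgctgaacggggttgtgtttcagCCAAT
Jak2 promoter, chr19:29251623-29251763, plus strand: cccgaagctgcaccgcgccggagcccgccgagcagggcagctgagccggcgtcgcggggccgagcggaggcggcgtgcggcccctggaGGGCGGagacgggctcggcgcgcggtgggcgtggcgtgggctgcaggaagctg
Socs2 site, chr10:95416899-95416928, minus strand: gcggaTTCctgGAAagTTCctgGAAagcgg
The Jak2 window has 80.9% G and C and 23 CpG, the Stat5b window 71.7% and 17 CpG, the Stat2 window 61.0% and 10 CpG. The Stat3 window has 45.5% G and C and 1 CpG, so that it differs from the promoter windows in base composition as well as in place.

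All 9 genes had at least 1 TRBS, beside 57.7% of the 21938 protein-coding genes, but the genes had been listed with earlier results of these data known, and Stat4, a STAT gene outside the list, had none. Jak1 had 4 sites, Stat6 had 3, and Stat5a, Stat5b and Socs3 had 2 each. Stat3, Stat2, Socs2 and Jak2 had 1 each. Of all protein-coding genes, 10.9% had 4 sites or more, 18.5% had 3 or more and 32.4% had 2 or more. Long genes offer more room for sites, and among genes of 0.8 to 1.25 times the length of Jak1 the share with at least 4 sites was 20.2%. For Stat6 the share with at least 3 sites among genes of like length was 13.98%. The median over the listed genes was 2 sites, against 1 over all protein-coding genes.

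**Figure D1:**
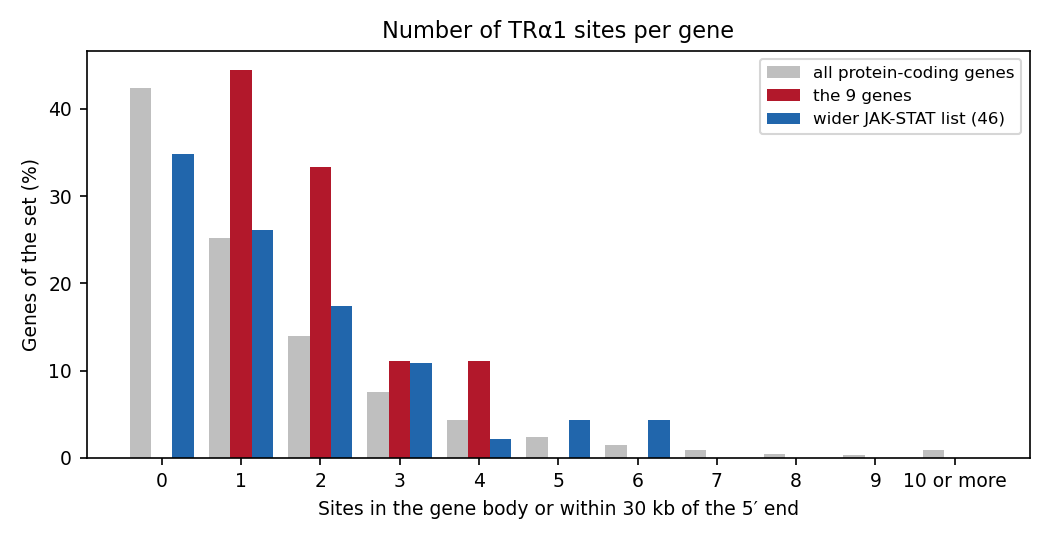
Percentage of genes (y axis) by number of TRBS in the gene body or within 30 kb of the 5-prime end (x axis), for all protein-coding genes, the 9 listed genes and the wider list of 46 genes. The 9 genes fall between 1 site (4 genes) and 4 sites (Jak1), and none stands at 0, where 16 of the 46 wider genes stand.

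**Figure D2:**
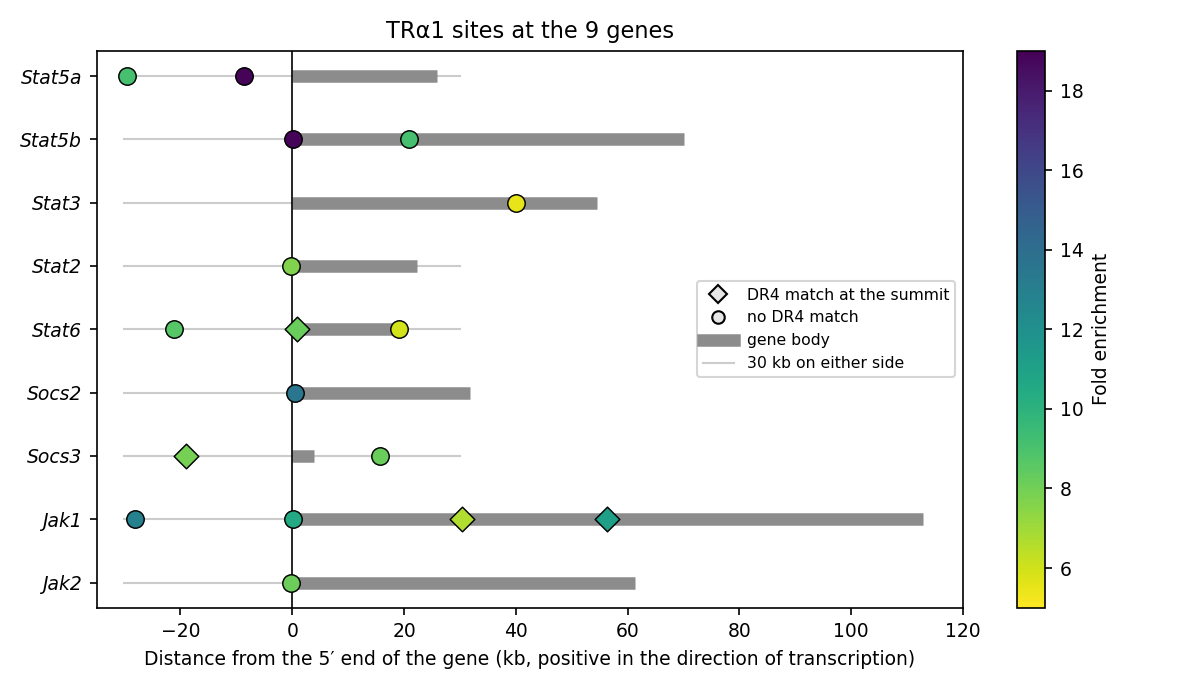
Positions of the sites relative to the 5-prime end of each gene (x axis, kb, negative upstream), with the gene body as a thick bar, the searched distance of 30 kb as a thin line, the fold enrichment as colour and a diamond for a site with a DR4. Stat5b, Stat2, Stat6, Socs2, Jak1 and Jak2 carry a site close to the 5-prime end, whereas Stat5a, Stat3 and Socs3 carry none there.

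Among the STAT genes, the strongest site lay at the 5-prime end of Stat5b. Stat5a and Stat5b encode closely related factors that act downstream of growth hormone and prolactin receptors. The 2 genes are divergent on chromosome 11, with 5-prime ends 8627 bp apart. Stat3 follows on the far side of Stat5a, with the 3-prime ends of both genes overlapping by 72 bp, and the 3 genes together span 158810 bp with 3 sites.

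The site at Stat5b (chr11:100850369-100850876) had its summit 77 bp inside the gene, in the untranslated part of exon 1, and 8704 bp upstream of the 5-prime end of Stat5a. Its pileup, the number of ChIP fragments over the summit, was 73, with an exact 95% Poisson interval of 57.2 to 91.8. Such intervals cover counting error only. They treat fragments as independent and ignore that each summit was picked as a high point of coverage. Whether intervals overlap is therefore a description and no test. The fold enrichment, the ratio of the pileup to the background MACS expected locally (each plus 1), was 18.9, above that of 90.1% of the sites in the list and of 88.1% of the sites within 1 kb of a protein-coding 5-prime end. This pileup was the highest of the 15, and its interval overlapped that of none of the other 14 sites. The local background there was 2.92 fragments, the second highest of the 15, so the high ratio did not go with a low background.

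The other site shared by both Stat5 genes (chr11:100829541-100829995) lay in intron 1 of Stat5b, 20918 bp downstream of its 5-prime end and 29545 bp upstream of that of Stat5a. It had 24 fragments at the summit and an enrichment of 9.12-fold. Neither site lay in the body of Stat5a or within 1 kb of its 5-prime end, so both of its assignments rest on the distance of 30 kb, and by the nearest 5-prime end both sites belonged to Stat5b.

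Stat3, which responds to the cytokines of the IL-6 family and to leptin, had 1 site, and it was the weakest of the 15 by fold enrichment. This site (chr11:100899414-100899761) lay in intron 11 of 24 exons, 39986 bp downstream of the 5-prime end. It had 18 fragments at the summit and an enrichment of 5.54-fold, above that of only 9.78% of the sites in the list. The summit lay 247 bp upstream of the start of a processed transcript of Stat3. No site lay within 30 kb of the 5-prime end of Stat3, and the nearest one upstream stood 69950 bp away at Atp6v0a1, a subunit gene of the vacuolar proton pump.

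**Figure D3:**
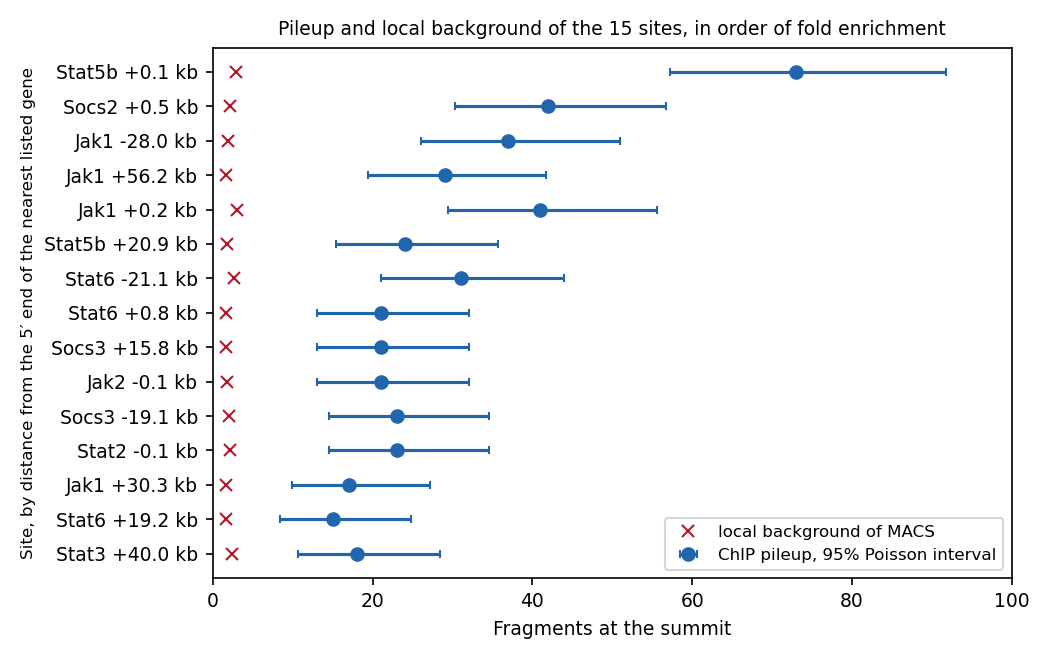
Pileup at the summit of the 15 sites (x axis, fragments, with exact 95% Poisson intervals for counting error only) and local background (crosses), each labelled by its nearest listed gene and its distance to that 5-prime end in kb. The site at the 5-prime end of Stat5b stands at 73, apart from the other 14 sites, whose intervals each overlap those of 10 to 13 others.

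Stat2, which acts downstream of type I interferon, had 1 site at its 5-prime end (chr10:128270135-128270787). The summit lay 143 bp upstream, with 23 fragments at the summit and an enrichment of 7.66-fold. This value was close to the median of all sites, 7.40. The next site of the list downstream lay just outside the distance used, 32824 bp from the 5-prime end of Stat2, with a fold enrichment of 13.8, and stood 48 bp inside Pan2, a gene of mRNA deadenylation. Just inside the distance were the Stat5b intron site, at 29545 bp from Stat5a, and a Jak1 site at 28042 bp.

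Stat6, the factor of interleukin 4 and interleukin 13 signalling, had 3 sites. The first (chr10:127643663-127644357) lay in intron 1, 826 bp inside the gene, with 21 fragments at the summit and an enrichment of 8.18-fold. The site 21147 bp upstream (chr10:127621562-127622041) had 31 fragments at the summit and an enrichment of 8.71-fold, and stood 691 bp upstream of Lrp1, which encodes an endocytic receptor of the LDL receptor family. The site 19169 bp downstream (chr10:127662015-127662590) had 15 fragments at the summit and an enrichment of 5.95-fold, and lay in intron 6 of Nab2, a corepressor of EGR factors, with the nearest 5-prime end that of Nemp1. Of the 3 sites of Stat6, therefore, 1 was nearer to Stat6 than to any other protein-coding gene, and this was the site with a DR4.

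Jak1, the kinase of most cytokine receptors with a common gamma chain or gp130, had 4 sites. The site at its 5-prime end (chr4:101264637-101265436) had its summit 189 bp inside the gene in exon 1, with 41 fragments at the summit (Poisson interval 29.4 to 55.6) and an enrichment of 10.6-fold. An upstream site (chr4:101293115-101293535), 28042 bp from the 5-prime end and within the noncoding gene Gm12796, had 37 fragments at the summit and an enrichment of 12.9-fold, the highest of the 4. Their pileup intervals overlapped, and the higher ratio of the upstream site went with a lower local background, 1.95 fragments against 2.98.

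Both remaining Jak1 sites lay in intron 1 of a gene of 25 exons. The distal one (chr4:101208808-101209173), 56247 bp downstream of the 5-prime end, had 29 fragments at the summit and an enrichment of 11.2-fold. The proximal one (chr4:101234841-101235092), 30303 bp downstream, had 17 fragments at the summit and an enrichment of 6.69-fold, and at 252 bp it was the shortest of the 15 sites. Both counted because they lay in the gene body, being farther than 30 kb from the 5-prime end. Jak1 was the listed gene with the most sites bearing a DR4, namely these 2.

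Jak2, the kinase of the growth hormone, prolactin and leptin receptors, had 1 site (chr19:29251608-29252051). Its summit lay 135 bp upstream of the 5-prime end, with 21 fragments at the summit and an enrichment of 8.12-fold. The next site downstream stood 270796 bp from the 5-prime end, so that the whole gene body was free of sites in the list. Peak numbers follow position, and 6 are missing between these sites, so peaks removed from the list may have lain there. Jak1 thus had more sites than Jak2, 4 against 1, but the region searched was also longer, 142916 bp against 91253 bp. At the 5-prime ends the pileup was 41 fragments for Jak1 and 21 for Jak2. The Poisson intervals of these counts overlapped, but overlap alone does not show that the counts were alike, and their difference was not tested.

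Socs2, an inhibitor of growth hormone signalling that is itself a target of STAT5, had the second strongest of the 15 sites (chr10:95415824-95417152). The summit lay 500 bp inside the gene, in the untranslated part of an exon 1, with 42 fragments at the summit (Poisson interval 30.3 to 56.8) and an enrichment of 13.5-fold. This was above 82.1% of the sites in the list. At 1329 bp the site was also the longest of the 15, against a median length of 455 bp.

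Over the whole length of a site, TTCNNNGAA was found at 1 of the 15 sites (6.67%), against 13.2% of all sites, and the form with 4 bases between the half-sites at 1 (6.67%), against 11.5%. The first was the Socs2 site. It contained 2 copies of TTCNNNGAA with their starts 11 bp apart, shown above. They stood 224 to 243 bp from the summit, and 47 to 66 bp before the start of an inner Socs2 transcript. In the whole list, 20 sites (0.083%) held copies of this element with starts 9 to 20 bp apart, a count made after the pair had been seen. The Stat2 site held the same STAT half-sites 4 bases apart, once on each side of its summit. Neither element lay within 100 bp of a summit.

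Socs3, the inhibitor of gp130 and leptin receptor signalling, had 2 sites and none within 1 kb of its 5-prime end. The downstream one (chr11:117954125-117954476), 15769 bp from the 5-prime end and intergenic, had 21 fragments at the summit and an enrichment of 8.18-fold. The upstream one (chr11:117988922-117989328), at 19051 bp, had 23 fragments at the summit and an enrichment of 7.94-fold and stood 2806 bp inside Pgs1, an enzyme gene of cardiolipin synthesis. The pileup intervals of both overlapped, and the one with a DR4 was nearer to Pgs1 than to Socs3.

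Taking the 15 sites as a group, the median fold enrichment was 8.18, with a range of 5.54 to 18.9, against a median of 7.40 over all sites and of 7.44 over the 18964 sites assigned by the same rule to any protein-coding gene. Of the 15, 12 lay above 7.40 and 1 lay in the top 10% of the list. The median pileup was 23 fragments against 21. The local background was at its lowest value, 1.69 fragments, at 5 of the 15 sites (33.3%) and at 42.3% of all sites. The median of the strongest site per gene was 8.71, below the 10.04 found over all protein-coding genes with a site.

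**Figure D4:**
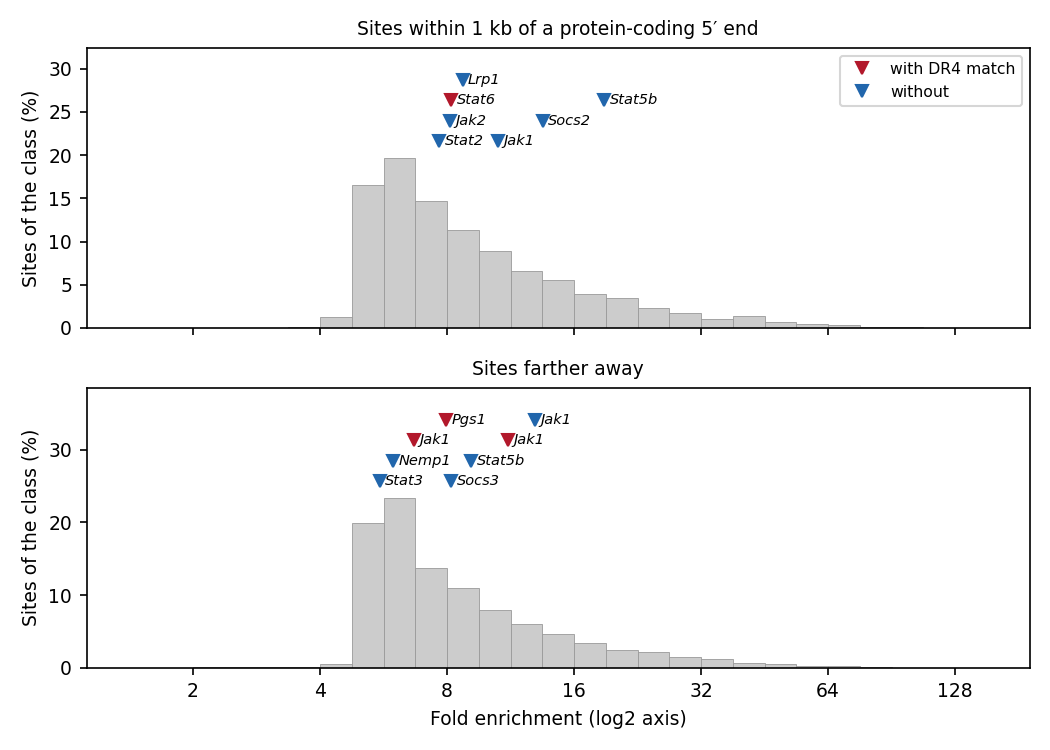
Fold enrichment (x axis, log2 scale) of all TRBS as a percentage of the sites of their class (y axis), above for those within 1 kb of a protein-coding 5-prime end and below for the others. Triangles mark the 15 sites, labelled by the nearest protein-coding gene. The members range from 5.54 to 18.9 around a median of 8.18, against a median of 7.40 over the list.

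By place, 7 of the 15 sites lay in introns of protein-coding genes, 3 lay in their untranslated exons and 5 lay outside protein-coding genes, 1 of them in the noncoding Gm12796 and 4 outside every annotated gene. A site within 1 kb of the own 5-prime end was found for 6 of the 9 genes, beside 23.2% of all protein-coding genes. The 9 genes all had a site, however, and were listed with earlier results of these data known. Of the 12648 protein-coding genes with at least 1 site, 5092 had one within this distance. Counting any protein-coding gene, 7 of 15 sites (46.7%) lay within 1 kb of a 5-prime end, the additional one at Lrp1, against 25.8% of the sites assigned to a protein-coding gene. The 6 own sites ranged from 7.66 to 18.9 in fold enrichment and from 58.2% to 82.6% in G and C, and the ratio of observed to expected CpG ranged from 0.452 to 1.08. For the 8 sites farther away the fold enrichment ranged from 5.54 to 12.9 and the G and C content from 41.3% to 64.7%, so that both ranges overlapped. The nearest protein-coding 5-prime end was that of a listed gene for 12 of 15 sites, and that of Lrp1, Nemp1 or Pgs1 for the other 3.

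A DR4 was present at 4 of the 15 sites (26.7%, exact 95% Clopper-Pearson interval 7.79% to 55.1%), against 13.1% of all sites in the list. The interval treats the 15 sites as independent draws, although several share a gene or locus. It contains the value of the list, so no difference is read from these sites. Only 1 of the 4 lay within 1 kb of a 5-prime end, that of Stat6, where 6.35% of all such sites had a match. The other 3 belonged to the 8 sites farther away, where the share over the list was 14.9%. The 4 matches lay 8.5 to 43.5 bp from the summit. Among the 15, the sites with a match were not the strongest: their median fold enrichment was 8.06 and their highest 11.2, against a median of 8.71 for the 11 sites without. Over the whole list the order was the reverse, with a median of 8.18 for the 3153 sites with a match and 7.15 for the 20835 without.

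The count depended on the stringency of the search. With at most 1 mismatch none of the 15 had a match, against 3.11% of all sites. With at most 3 mismatches 9 of 15 sites had one, against 38.2%, and with at most 4 the shares were 80.0% and 80.3%. The sites at the 5-prime ends of Stat5b, Socs2 and Jak2 had no match closer than 5 mismatches, and these include the strongest 2 of the 15. In the Stat3 site the best match, tGGTCAcgtgAGGatA, had 3 mismatches and ran across the E-box shown above.

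**Figure D5:**
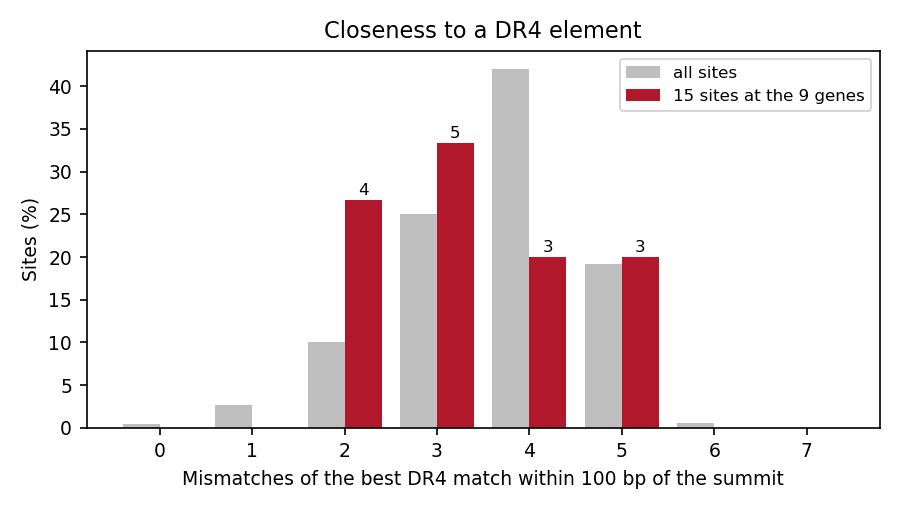
Fewest mismatches to DR4 within 100 bp of the summit (x axis, of 12 half-site bases) for the 15 sites and for all 23988 sites, as a percentage of sites (y axis). The members lie between 2 and 5 mismatches, with 4 sites at 2, 5 at 3, 3 at 4 and 3 at 5.

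Arrangements of the half-site other than DR4, namely direct repeats with 0 to 3 or 5 to 8 bases between the copies and the everted and inverted repeats ER6 and IR0, were matched with the same 2 mismatches at 2 of 15 sites (13.3%), against 17.9% of all sites. One was a DR0 in the upstream Jak1 site. The other was a DR5 in the proximal Jak1 intron site, and it shared a half-site with the DR4 shown above. A complete single half-site AGGTCA stood within 100 bp of 2 of 15 summits (13.3%), against 17.8%. One of them was that of the Stat6 intron, where it formed the second copy of the DR4.

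Among exact matches to other elements, searched on both strands, the SP/KLF box GGGCGG was present at 7 of 15 sites (46.7%), against 18.2% of all sites. Of the 7 sites within 1 kb of a 5-prime end 5 had it, against 52.8% of all such sites. The CCAAT box stood at 3 of 15 (20.0%, against 19.9%) and the E-box at 1 (6.67%, against 4.68%). The AP-1 element TGANTCA was at none, against 11.5% of all sites. The STAT element TTCNNNGAA was at none, against 5.97%, and neither was the form with 4 bases between the half-sites, against 5.14%. A count of 0 of 15 allows a share of up to 20.0%, so that lower shares than in the list were not detectable.

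The promoters of the same genes were searched in RefSeq sequences of GRCm38.p6, each a window of 300 bases around the start. There were 10 of them for 8 of the 9 genes among 32851 promoters, and Socs2 was not searched here. None of the 10 had a DR4, against 3.02% of all promoters, and 10 are too few to show a lower share. A single half-site AGGTCA was in 4 of the 10, at Stat5a, Stat5b and Stat6, against 16.3% of all promoters. The element TTCNNNGAA was in the promoter of Socs3 and in 8.30% of all. The form with 4 bases between the STAT half-sites was in the promoter of Stat2 and in 6.95% of all. Both STAT elements are shown with capitals for the STAT half-sites.
Socs3 promoter, chr11:117969502-117969530, minus strand: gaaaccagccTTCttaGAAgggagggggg
Stat2 promoter element, chr10:128270278-128270307, plus strand: tcagtttcctTTCcctaGAActcacggttc
The Stat2 element stood inside the TRBS of the gene, 205 bases before the start. The Socs3 element stood 150 bases before the start, and no TRBS lay there. Both distances were counted from the RefSeq start. In the gene annotation used for the sites, the Socs3 element lay inside the gene body.

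The other genes of the pathway were taken from a list of 46, which was drawn up with earlier results of the data known. Of these, 30 (65.2%) had at least 1 site, with 68 distinct sites in all, against the 57.7% of protein-coding genes. By role, sites were found for both other kinases, for 13 of 15 inhibitors (86.7%), for 12 of 20 receptor chains and for 3 of 7 ligands (42.9%). A site within 1 kb of the 5-prime end was present at 10 of the 46 genes (21.7%, against 23.2% of protein-coding genes), and a site with a DR4 at 8 (17.4%, against 14.1%).

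Epor, the erythropoietin receptor, and Jak3, the kinase of lymphoid cytokine receptors, had 6 sites each, with maximal fold enrichments of 15.95 and 18.1. For Jak3 the strongest site was nearest to Unc13a, a gene of synaptic vesicle priming. Cntfr, the receptor chain for CNTF, had 5 sites, 2 of them with a DR4, and a maximum of 11.2. Ifngr2, a chain of the interferon gamma receptor, had 3 sites with a maximum of 8.12.

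Among inhibitors, Socs5 had 5 sites with a maximum of 19.1 at its 5-prime end, and Socs6 had 4 with a maximum of 29.2 in the gene body. Pias4, a SUMO ligase acting on STATs, had 3 sites, and the strongest, at 79.9, was nearest to Eef2, a gene of translation elongation. Pias2 had 3 sites with a maximum of 10.8. Ptpn11, the phosphatase SHP2, had 3 sites with a maximum of 12.6. The ligand gene Clcf1 had 3 sites with a maximum of 50.6, at a site nearest to Ppp1ca, a catalytic subunit of protein phosphatase 1. The strongest values among these 10 genes, those of Pias4 and Clcf1, were therefore at sites nearer to another gene.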

How the data were processed

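ChIP and input libraries were assigned from the sample titles. The authors crosslinked striatum with disuccinimidyl glutarate and formaldehyde, aligned reads to mm10 and called peaks, per the submitters' processing notes with Bowtie2 2.3.2.2 and MACS2 2.1.1.20160309.0, and removed peaks with a score below 60. The study's methods name another Bowtie version. Whether the libraries were pooled, and how duplicates were treated, was not stated. The deposited values are the pileup (a signal, in fragments of coverage), the fold enrichment (a ratio to the local background), the −log10 q, and a score of 10 times −log10 q. Peak numbers in the list ran to 47234, against 23988 sites kept, so a place without a site may have held a removed peak. The depth of each library is unknown from the list, and the list was used as deposited.

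From these, the local background was computed as pileup plus 1, divided by fold enrichment, minus 1. Genes were those of GENCODE vM21 on GRCm38, and a 5-prime end was that of the gene. Motifs were searched within 100 bp of each summit in Python 3.11.15 with numpy 2.4.6, pandas 2.3.3 and scipy 1.17.1, and figures drawn with matplotlib 3.10.9; the searches were tested on simulated sequences. The members and gene lists were chosen with earlier results of these data known. Named were all members, genes nearer to their sites, and the 10 genes of the wider list with most sites; 1 item is not reported here. The windows shown, the Poisson intervals, the promoter search and the Socs2 element pair, and the mention of Pan2, Atp6v0a1, Gm12796 and Nab2, were chosen after values were seen. Alternatives were other distances, rules of assignment, gene sets, mismatches and a score of at least 200.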

Additional observations from a re-analysis of the deposited data

How the results depend on the processing

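The list held no values for single libraries, so leaving out a library was not possible. No paired analysis was possible because the result comes from no test and the peak list carries no replicate numbers. Of 32 alternatives for the counts and medians that answer a comparison, 24 stayed within 1.5 times the main value. The numbers of sites of single genes were less steady, with 33 of 54 alternatives within this range. With a distance of 100 kb the 9 genes had 32 sites instead of 15. With a score of at least 200 they had 5 sites at 4 genes (Stat5a and Stat5b by 1 shared site, Socs2 and Jak1), the median fold enrichment was 12.9, 1 site had a DR4, and 30.6% of protein-coding genes had a site, by construction of the stricter list. Sites with a DR4 went from 4 to 0 with at most 1 mismatch and to 9 with at most 3. With a distance of 10 kb, 8 genes had a site, Socs3 had none and Stat6 had 1 instead of 3. Without the gene body Stat3 had none, and by the nearest 5-prime end Stat5a had none and Stat6 had 1. Depth and the absence of per-library values limit all statements to this list.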

Other observations

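The nearest site beyond Stat5b had a higher ratio than any site of the locus. The neighbouring potassium channel gene Kcnh4 had a site at its 5-prime end with 65 fragments at the summit and an enrichment of 20.7-fold, and this site stood 90765 bp from the 5-prime end of Stat5b. Its pileup was below the 73 of the Stat5b site, although its ratio was higher. Between Stat3 and Atp6v0a1, the gene Cavin1, which encodes a protein of caveolae, had no site in its body or within 30 kb of its 5-prime end.

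Between 30 kb and 100 kb from a listed gene lay 17 further sites, 12 of them within 1 kb of the 5-prime end of another gene. The strongest was 76087 bp upstream of Stat2, 15 bp inside the glutaminase gene Gls2, with 154 fragments at the summit and an enrichment of 44.7-fold. Near Socs2, a site 97822 bp upstream stood 143 bp before Ube2n, a ubiquitin-conjugating enzyme gene, with a fold enrichment of 17.9. All genes in these paragraphs were chosen after their values were seen.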
